A study of Mus musculus with 4 samples.

Results

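Lpl, Gpihbp1, Angptl4, Lmf1, Cd36, Vldlr, Fabp3, Fabp4, Fabp5 and Slc27a1 are genes that release fatty acids from circulating lipoproteins, bring them across the plasma membrane and carry them inside the cell. They were chosen by name, and their array probes were found through the accession that each probe carries. All 10 genes had at least 1 probe, which gave 14 probes out of 55681 probes, and 10 genes out of 20141 genes that a probe names. The rule used no measured value.

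The study activated the integrated stress response (ISR) in adipose tissue with Fv2E-PERK, which joins the kinase domain of the eIF2α kinase PERK to a dimerization domain. AP20187 (AP), a synthetic ligand, dimerizes this protein and so switches its kinase on. Brown adipose tissue (BAT) was collected at 12 h after an intraperitoneal injection of either AP or vehicle, with 2 samples in each group. The RNA of each sample was hybridized to its own one-color array. The comparison asks how the BAT transcriptome differs after AP in mice that all carry the kinase. Both groups were male maP2::Fv2E-PERK Tg mice at 8 weeks of age. No wild-type array was part of the comparison, so the transgene is shared by AP and vehicle mice. The AP dose is 1 ng/g in the sample labels and 0.05 mg/kg in the legend of the experiment. These are not the same dose, and which was given is not settled here. A 5.4-kb fragment of the mouse aP2 promoter drives the transgene. The aP2 gene is Fabp4, itself one of the 10 genes, and the promoter is also known to be active in monocytes and macrophages.

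BAT burns fatty acids to make heat, and draws much of this fuel from triglyceride-rich lipoproteins in the blood. LPL is made by adipocytes, matures in the ER with the help of LMF1, and is carried across the capillary wall by GPIHBP1 of the endothelium, where it hydrolyzes triglycerides unless ANGPTL4 inactivates it. VLDLR binds apoE-rich lipoproteins, CD36 and SLC27A1 (FATP1) aid the entry of fatty acids, and the FABP proteins hold fatty acids in the cytosol.

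Levels are given as log2 of the processed signal minus the log2 75th percentile of the same array, so they rank a single probe across arrays and not 1 gene against another. Of 24972 probes tested, limma called 0 at a Benjamini-Hochberg adjusted p under 0.05, and the smallest adjusted p was 0.80. An unadjusted limma p under 0.05 was found for 1515 probes. The arrays correlated with an r of 0.972 within the vehicle pair and 0.981 within the AP pair, and between 46.4 and 49.0% of spots were well above background. The arrays shared 1 slide and 1 scan. Trib3, a target of the ISR, was read as a check of the response and was at 2.78 and 2.33 with vehicle and at 6.26 and 8.01 with AP. Ddit3, another target, was at 2.18 and 1.86 with vehicle and at 3.03 and 4.22 with AP. Atf4, the transcription factor of the response, was at 7.49 and 6.12 with vehicle and at 7.26 and 8.23 with AP, so its groups overlapped. The log2 differences of AP minus vehicle were 4.57 ± 0.63 (SE) for Trib3, 1.61 ± 0.45 for Ddit3 and 0.94 ± 0.59 for Atf4, all short of the adjusted threshold. With 1 mouse left out, Ddit3 ranged from 1.01 without AP replicate 2 to 2.20 without AP replicate 1, and Atf4 from 0.26 without vehicle replicate 2 to 1.62 without vehicle replicate 1. The labels number the samples of a group and do not state that each is a separate animal. P values thus rest only on the spread between these samples, called mice here. The limma SE, interval and p value of a probe also draw on the spread of all probes tested.

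All 14 probes were well above background on all 4 arrays. None of the 14 passed the adjusted threshold (limma, adjusted p between 0.80 and 0.98), beside 0% of all probes tested. Of the 10 genes, taken at the brightest probe of each, 6 were higher and 4 lower with AP, and between 5 and 7 were higher under the other settings tried, since Gpihbp1, Lmf1, Angptl4 and Fabp4 changed side in some. Their median log2 difference was 0.19, beside a median of 0.011 and a share of 51.4% higher among all 12782 genes tested. Both AP mice were above both vehicle mice for 3 genes (Lpl, Vldlr and Fabp3), beside 20.1% of all genes and 18% of all probes. Both AP mice were below both vehicle mice for 2 genes (Cd36 and Fabp5), beside 17.3% of all genes and 20.4% of all probes. The groups of the other 5 genes overlapped. An unadjusted limma p under 0.05 was found for 1 gene, Vldlr, beside 6.05% of all genes and 6.07% of all probes. Only for Vldlr and Fabp5 among the 10 genes was the difference between groups larger than the gap within each pair of mice.

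**Figure D1:**
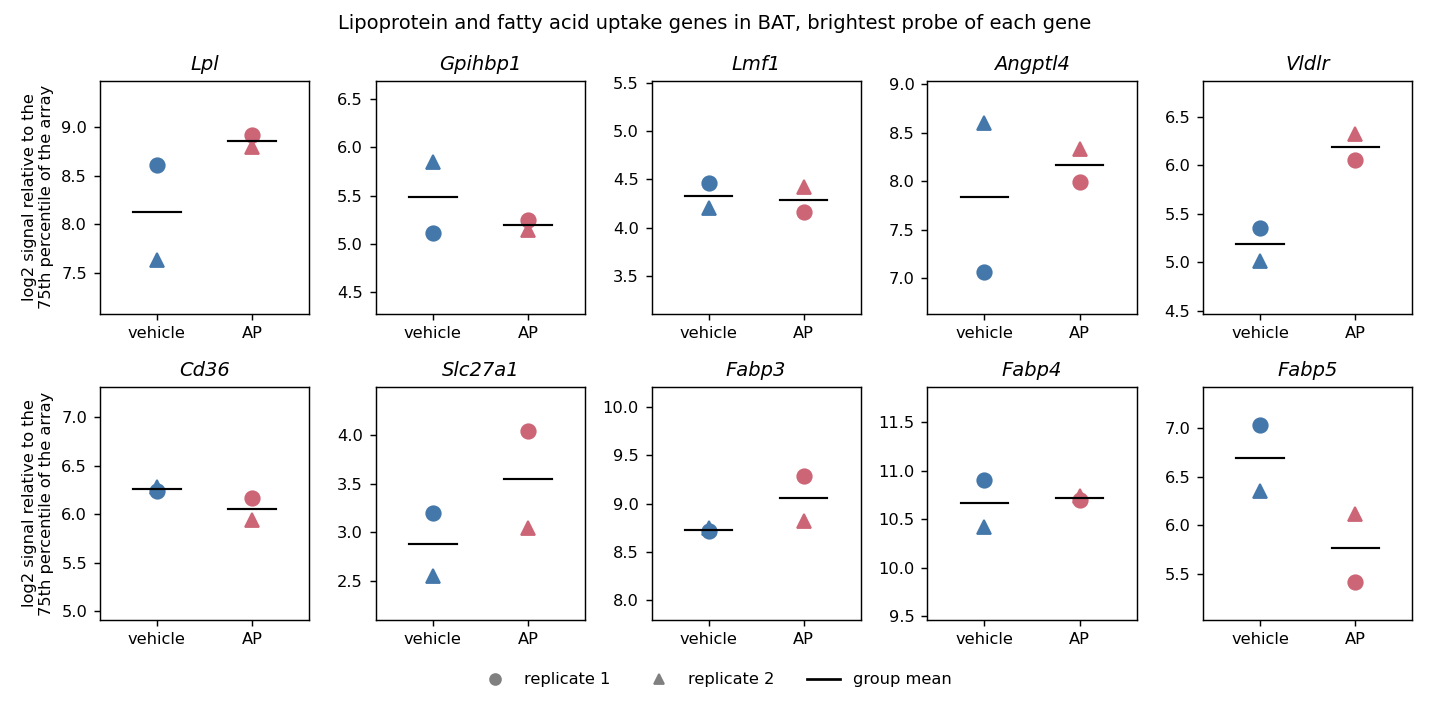
Each panel plots 1 gene at its brightest probe in BAT of vehicle- and AP-treated Tg mice, with log2 signal, scaled to each array's 75th percentile, on the y axis. Points are single mice (circle, replicate 1; triangle, replicate 2), lines are group means, and all panels span the same number of log2 units. The AP points of Vldlr, Lpl and Fabp3 lie above both vehicle points, and those of Fabp5 and Cd36 lie below.

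Vldlr, the lipoprotein receptor of the set, had the largest difference of the 10 genes. Its brighter probe (A_55_P2030524) was at 5.36 and 5.01 in the vehicle mice and at 6.06 and 6.33 in the AP mice. Both AP mice stood above both vehicle mice, with 5.19 ± 0.24 (SD, n = 2) in vehicle and 6.19 ± 0.19 (SD, n = 2) in AP. The log2 difference was 1.01 ± 0.24 (SE), a 2.01-fold higher signal, with a 95% interval from 0.36 to 1.65 and a limma adjusted p of 0.80. This was the only interval of the 10 brightest probes that left out 0. The second probe (A_55_P2174836) was at 2.21 and 1.92 with vehicle and at 3.11 and 3.22 with AP. It differed by 1.11 ± 0.22 (SE), 2.15-fold, with an interval from 0.51 to 1.70 and a limma adjusted p of 0.80, so the probes of this gene differed from each other by 0.099. Leaving out any 1 mouse kept the difference of the brighter probe between 0.83 and 1.18. Of the 12782 genes tested, 2.68% had a larger positive difference. An exact two-sided permutation test with 2 mice against 2 cannot go below p = 0.333, which is the value for every gene whose groups do not overlap.

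A promoter stretch of Vldlr is shown because the core of the C/EBP-ATF composite element, to which ATF4 with a C/EBP partner and CHOP are known to bind, was searched for in the promoters of these genes. The core was spelled TGATGNAA, or TTNCATCA on the other strand, and the promoters were RefSeq windows of assembly GRCm38.p6 from 250 bases before to 50 after a start site. Of 32851 such windows, 3.97% held it. Among the 5 genes with a window (Vldlr, Slc27a1, Fabp3, Cd36 and Lmf1, 8 windows in all), 2 windows held it, 1 of Vldlr and 1 of Fabp3. The matched letters are in capitals and belong to chr19:27216809-27216838 and chr4:130308676-130308705, both on the plus strand.
Vldlr: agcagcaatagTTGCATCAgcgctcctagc
Fabp3: gtgtgggccacTTTCATCAtgtgatgcgag
The match began 200 bases before the start site in Vldlr and 51 bases before it in Fabp3. AGGTCA, the core of nuclear receptor sites, was in 16.3% of windows on either strand, and TATAAA in 13.6%. Of the 5 genes with a window, Cd36 held AGGTCA, spelled TGACCT in its window, 228 bases before its start, and none held TATAAA. A match describes letters only, and binding was not measured here.

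Lpl, the lipase itself, was higher in both AP mice than in either vehicle mouse, but the vehicle mice stood far apart. Its brighter probe (A_51_P259296) was at 8.61 and 7.63 with vehicle and at 8.93 and 8.79 with AP. The lowest level was that of vehicle replicate 2, and the AP mice were only slightly above vehicle replicate 1. The log2 difference was 0.74 ± 0.38 (SE), 1.67-fold, with an interval from -0.28 to 1.75 and a limma adjusted p of 0.80. The second probe (A_52_P257812) was at 6.13 and 5.41 with vehicle and at 6.45 and 6.24 with AP, a difference of 0.58 ± 0.32 (SE). Both probes thus had the same order of mice, with a difference that was smaller than the gap within the vehicle pair. Without vehicle replicate 2 the difference of the brighter probe was 0.25, and without vehicle replicate 1 it was 1.23.

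The genes that carry, mature and inhibit the lipase had overlapping groups. Gpihbp1 (A_51_P331328), the endothelial carrier, was at 5.12 and 5.85 with vehicle and at 5.25 and 5.14 with AP. Vehicle replicate 2 was the high mouse and the other 3 were close together. The difference was -0.29 ± 0.31 (SE), with an interval from -1.12 to 0.54 and a limma adjusted p of 0.86, and it was 0.078 without vehicle replicate 2. Markers of capillary endothelium, which carries GPIHBP1, had a summed level of 5.90 and 6.26 with vehicle and of 5.91 and 6.11 with AP. The sum over 8 of 8 genes was highest on vehicle replicate 2, but only 4 of the 8 genes were. Their part in the Gpihbp1 values was not tested.

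Lmf1, the ER factor for lipase folding, had a brighter probe (A_55_P1991075) at 4.46 and 4.20 with vehicle and at 4.17 and 4.42 with AP. The mice of each group covered the same range. The difference was -0.04 ± 0.23 (SE), with an interval from -0.65 to 0.57, and it was 0.050 where arrays were scaled to their median. The dimmer probe (A_55_P2177988) was at 0.91 and 0.25 with vehicle and at 0.33 and 0.49 with AP, with a difference of -0.17 ± 0.30 (SE).

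Angptl4, the inhibitor of the lipase and a target of PPARs, had the widest gap within a group among the 10 genes. Its probe (A_51_P338443) was at 7.06 and 8.60 with vehicle and at 7.99 and 8.34 with AP. Both AP mice lay between the vehicle mice, which were 1.53 apart. The difference was 0.33 ± 0.56 (SE), with an interval from -1.14 to 1.81 and a limma adjusted p of 0.91. Leaving out vehicle replicate 1 gave -0.43 and leaving out vehicle replicate 2 gave 1.10, so its direction turned on which vehicle mouse was kept.

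**Figure D2:**
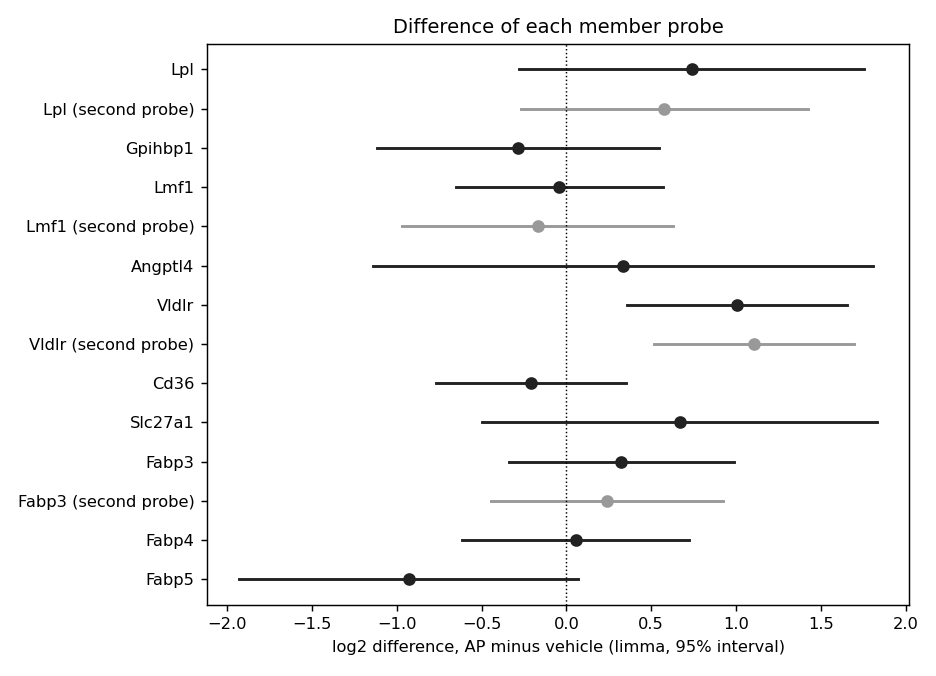
The log2 difference of AP minus vehicle (x axis) is shown for all 14 probes of the 10 genes, with bars for the 95% interval of limma and 0 as a dotted line. The intervals of both Vldlr probes lie above 0, and all others cross it.

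Of the proteins that aid fatty acid entry, Cd36 was slightly lower and Slc27a1 higher on average with AP. Cd36 (A_51_P375146), the fatty acid translocase, was at 6.24 and 6.28 with vehicle and at 6.16 and 5.94 with AP. Both AP mice were below the vehicle mice, 1 of them by little. The difference was -0.21 ± 0.21 (SE), with an interval from -0.77 to 0.35 and a limma adjusted p of 0.86, and it ranged from -0.32 to -0.097 with 1 mouse left out.

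Slc27a1 (A_51_P117477), a transport protein with acyl-CoA synthetase activity, was at 3.20 and 2.55 with vehicle and at 4.04 and 3.05 with AP. AP replicate 1 was the highest mouse, and AP replicate 2 lay between the vehicle mice. The difference was 0.67 ± 0.44 (SE), 1.59-fold, with an interval from -0.50 to 1.83 and a limma adjusted p of 0.81. Leaving out AP replicate 1 gave 0.17, and leaving out AP replicate 2 gave 1.16.

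The intracellular binding proteins had no shared direction: Fabp5 was lower, Fabp3 slightly higher and Fabp4 nearly level. Fabp5 (A_55_P1953387), which adipocytes, macrophages and endothelium are all known to express, was at 7.03 and 6.36 with vehicle and at 5.42 and 6.12 with AP. Both AP mice were below both vehicle mice, although AP replicate 2 was close to vehicle replicate 2. The difference was -0.93 ± 0.38 (SE), a 1.91-fold lower signal, with an interval from -1.93 to 0.07 and a limma adjusted p of 0.80. It lay between -1.28 and -0.58 with 1 mouse left out, the smallest of these without AP replicate 1. Of the 12782 genes tested, 2.34% had a larger negative difference.

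Fabp3, the muscle and heart binding protein that BAT also makes, was at 8.71 and 8.74 with vehicle and at 9.29 and 8.82 with AP at its brighter probe (A_55_P2033780). The AP mice were above the vehicle mice, 1 of them clearly and 1 narrowly. The difference was 0.32 ± 0.25 (SE), with an interval from -0.34 to 0.99 and a limma adjusted p of 0.82, and it was 0.090 without AP replicate 1. At the second probe (A_55_P1974367) the values were 8.58 and 8.54 with vehicle and 9.05 and 8.55 with AP, and there the groups overlapped, with a difference of 0.24 ± 0.26 (SE).

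Fabp4 (A_51_P336833), the main binding protein of adipocytes, whose promoter fragment drives the transgene, was at 10.90 and 10.43 with vehicle and at 10.70 and 10.74 with AP. Both AP mice lay between the vehicle mice. The difference was 0.05 ± 0.25 (SE), with an interval from -0.62 to 0.73, and it was -0.11 in the authors' own log2 table. It was -0.18 without vehicle replicate 2. This probe is annotated to the endogenous Fabp4 transcript, and whether it also detects the transgene was not tested.

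**Figure D3:**
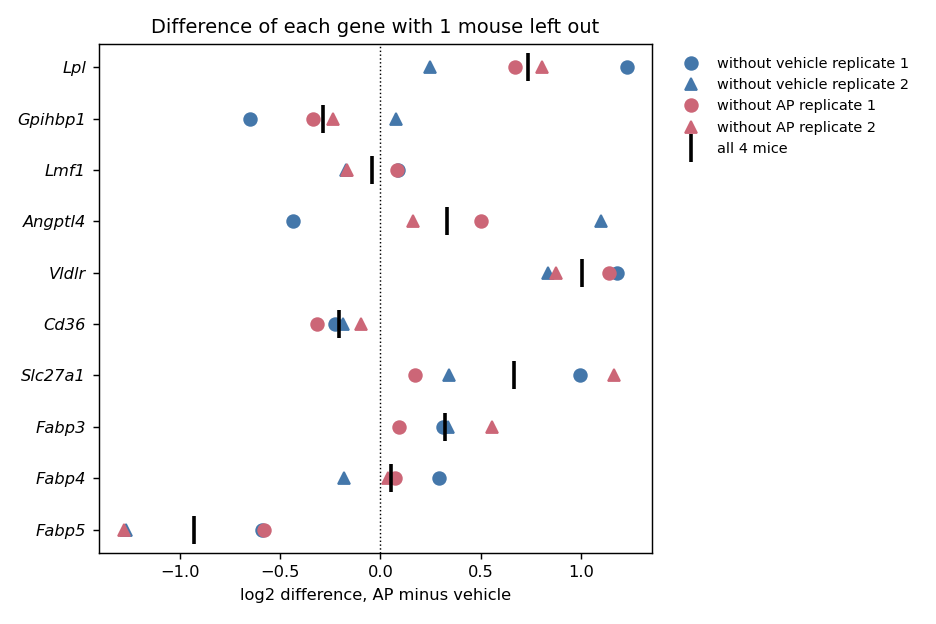
The log2 difference of AP minus vehicle (x axis) is shown for each gene at its brightest probe with all 4 mice (bar) and with each mouse left out in turn (symbols). Vldlr, Lpl, Slc27a1 and Fabp3 stay above 0 and Fabp5 and Cd36 below, while Angptl4, Gpihbp1, Lmf1 and Fabp4 have values on both sides of 0.

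Vehicle replicate 2 was the lowest mouse for 4 of the 10 genes (Lpl, Vldlr, Slc27a1 and Fabp4) and the highest for 3 (Gpihbp1, Angptl4 and Cd36). The 75th percentile signal used for scaling was 158.7 on its array and 118.5 to 127.6 on the others. Before scaling, vehicle replicate 2 was still lowest for Lpl and Slc27a1, but not for Vldlr or Fabp4. It was still highest for Gpihbp1, Angptl4 and Cd36. The gap within the vehicle pair was larger than that within the AP pair for 6 genes and smaller for 4. The vehicle mice also differed in markers of other cell types. Summed over 9 of 9 skeletal muscle genes, the level was 5.48 and 9.71 with vehicle and 9.04 and 8.13 with AP, so vehicle replicate 1 stood far below the other mice, and all 9 were highest on vehicle replicate 2. All 9 were higher with AP on average, with a median difference of 0.90, while the groups overlapped, and 0 of 9 were higher without vehicle replicate 1. Muscle is also known to express Lpl, Cd36, Vldlr, Slc27a1 and Fabp3. Summed over the 7 leukocyte and macrophage genes tested of 8 listed, the level was 5.77 and 6.97 with vehicle and 5.69 and 5.68 with AP, and 6 of 7 were highest on vehicle replicate 2. All 7 were lower with AP on average, with a median of -0.56, and 6 of 7 were higher without vehicle replicate 2. Macrophages are also known to express some of the 10 genes, Fabp5 and Cd36 among them. Without vehicle replicate 2 the difference of Fabp5 was -1.27 and that of Cd36 was -0.19. The part of either list in the values of the 10 genes was not tested. In pieces of whole tissue, fewer cells of a type and less RNA per cell cannot be told apart.

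Markers of brown adipocytes, 9 of 9 measured, had a summed level of 12.45 and 11.81 with vehicle and of 12.10 and 12.36 with AP. As for the other lists, signals were added before taking log2, so the brightest genes weigh most. Of the 9 genes, 5 were higher and 4 lower with AP on average. All 9 were well above background in every mouse, but the sum hides wide gaps in single markers. Elovl3 was at 6.08 and -1.07 with vehicle and at 3.52 and 5.76 with AP. Dio2 was at 0.49 and 1.53 with vehicle and at -1.78 and 3.33 with AP. Of 7 white adipose genes, 3 were tested, with a sum of 5.61 and 5.60 with vehicle and of 5.21 and 5.28 with AP. On average 1 of the 3 was higher and 2 were lower with AP. Retn, the brightest, differed by -0.38 and Lep by -1.38, with both AP mice below both vehicle mice. The vehicle mice were 1.41 apart in Lep. Nnmt differed by 0.15, and its groups overlapped. Hoxc8, Hoxc9, Tcf21 and Wt1 were not well above background on any array.

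**Figure D4:**
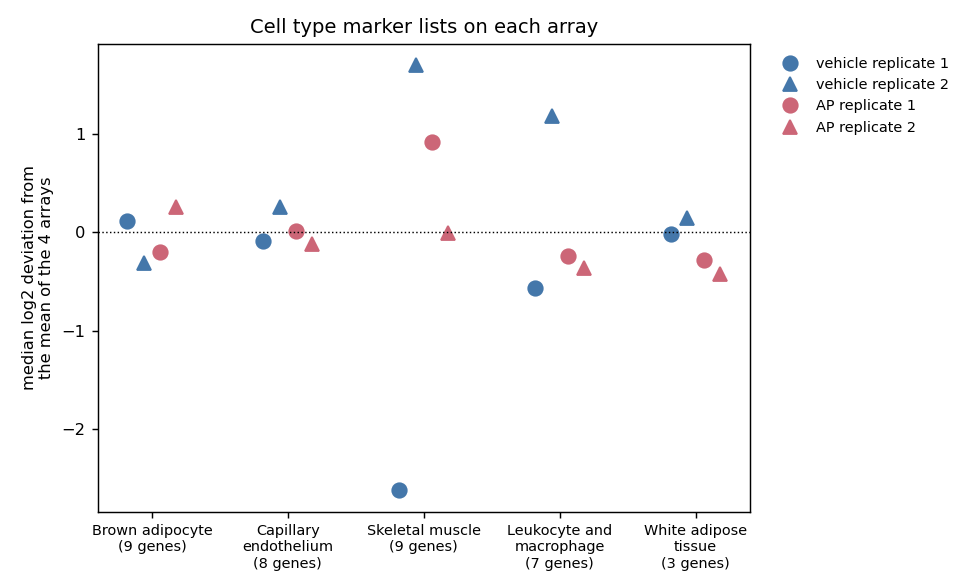
For each list of cell type markers (x axis, with the number of genes tested), the y axis gives the median log2 deviation of its genes from their mean over the 4 arrays, 1 point per mouse. The muscle list runs from -2.62 in vehicle replicate 1 to 1.70 in vehicle replicate 2, and the leukocyte list reaches 1.18 in vehicle replicate 2. The medians of the brown adipocyte and endothelial lists stay within 0.32 of 0, although single genes such as Elovl3 varied more.

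Other genes of lipoprotein and fatty acid handling were listed by role, 56 in all, of which 55 had a probe and 42 were tested. None passed the adjusted threshold. Of the 42, 22 were higher and 20 lower with AP, with a median difference of 0.0036, and 17 were higher in the authors' log2 table. Both AP mice were above both vehicle mice for 10, beside 20.1% of all genes, and below for 2, beside 17.3%. An unadjusted limma p under 0.05 was found for 3 of the 42, beside 6.05% of all genes. All 3 were higher with AP, beside 3.79% of all genes in that direction.

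Slc27a2 (FATP2), a very long-chain acyl-CoA synthetase and relative of Slc27a1, was at 4.43 and 3.77 with vehicle and at 6.30 and 5.08 with AP. Both AP mice were above both vehicle mice, with a difference of 1.59 ± 0.50 (SE), an interval from 0.27 to 2.92 and a limma adjusted p of 0.80. It was 0.98 to 2.20 with 1 mouse left out. Pcsk5, a proprotein convertase of the family that cleaves lipases and angiopoietin-like proteins, was at -0.21 and 0.04 with vehicle and at 1.04 and 0.77 with AP, a difference of 0.99 ± 0.23 (SE; limma adjusted p = 0.80) that was 0.61 with normexp. Sel1l, an ER-associated degradation adaptor known to be needed with LMF1 for LPL to leave the ER, was at 1.08 and 0.99 with vehicle and at 1.54 and 1.93 with AP. Its difference was 0.70 ± 0.24 (SE; limma adjusted p = 0.80), with no overlap between groups. The 2 genes with both AP mice below were Slc27a3, another FATP relative, at -0.47 ± 0.24 (SE), and Fabp12, of the binding protein family, at -0.43 ± 0.24 (SE). Slc27a3 was at -0.81 and -0.54 with vehicle and at -0.97 and -1.31 with AP. Fabp12 was at -2.10 and -2.04 with vehicle and at -2.29 and -2.71 with AP, which is among dim signals. Both depended on the setting: without AP replicate 2 the difference was -0.30 for Slc27a3 and -0.22 for Fabp12, and with normexp background correction it was -0.24 and -0.11.

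By role, the 10 tested partners of lipases and lipoproteins were split 4 higher and 6 lower, with a median of -0.085, but 9 and 1, with a median of 0.39, without vehicle replicate 1. Lipoprotein receptors and partners were split 6 and 2 among 8, with a median of 0.081, but 2 and 6 without AP replicate 1 and 3 and 5 in the authors' log2 table. Genes of fatty acid entry were split 3 and 6 among 9, with a median of -0.035, but 5 and 4 with the median of each array and also without vehicle replicate 2. Genes that activate or bind acyl-CoA were split 2 and 4 among 6, with a median of -0.16, but all 6 were higher, with a median of 0.48, without vehicle replicate 1. The 3 tested relatives of the FABPs were split 1 and 2, but 2 and 1 with the median of each array, without vehicle replicate 1 and without AP replicate 1. The 6 transcription factors known to act on these genes (Pparg, Ppara, Ppard, Rxra, Nr1h3 and Cebpa) were all higher on average, beside 51.4% of all genes. They differed by 0.063 to 0.47 with a median of 0.28. Only 5 of 6 were higher in the authors' log2 table, without AP replicate 1 and without AP replicate 2, and 4 of 6 without vehicle replicate 1. None of the 6 had an unadjusted limma p under 0.05. In 4 of them both AP mice were above both vehicle mice, beside 20.1% of all genes. These 4 differed by 0.24 on average for Pparg, 0.47 for Ppard, 0.44 for Rxra and 0.32 for Nr1h3.

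**Figure D5:**
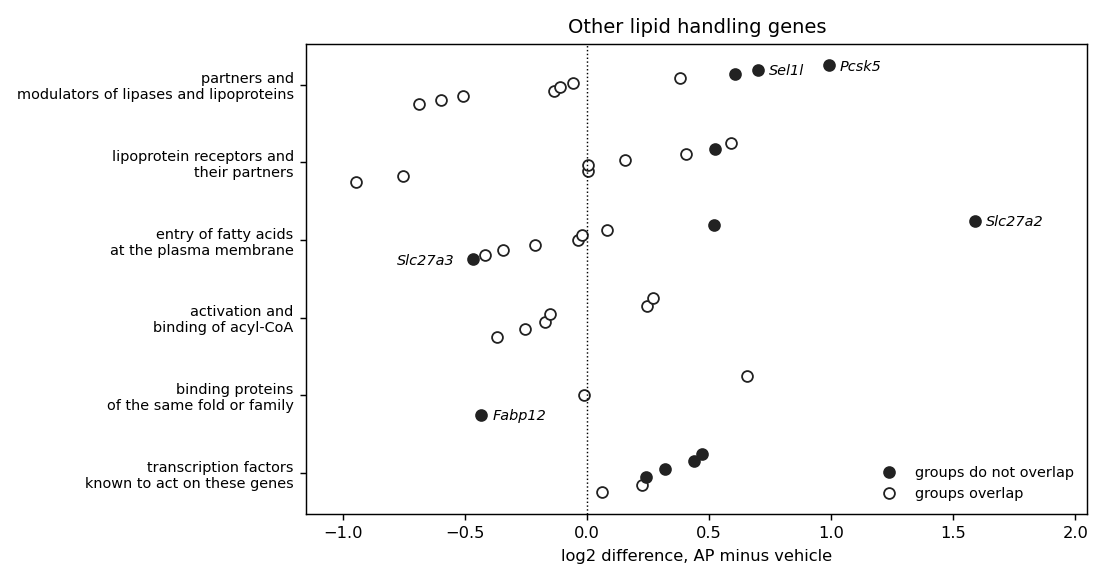
Each point is 1 of the 42 tested genes of lipoprotein and fatty acid handling outside the 10, placed by role (y axis) and by its log2 difference of AP minus vehicle (x axis). Filled points are genes whose AP and vehicle mice do not overlap. The points lie on both sides of 0 in every role except the transcription factors, where all 6 are above 0.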

How the data were processed

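RNA of 4 BAT samples from Tg mice was measured on Agilent SurePrint G3 Mouse arrays, 2 vehicle and 2 AP. The authors deposited the spot intensity of each array from Feature Extraction 10.7.1.1, background-corrected and not normalized between arrays, and a table of log2 values of the same arrays, whose normalization is not given in the sources used here. In that table, differences between arrays followed those of the intensities with an r of at least 0.9986 over 29061 probes. Its column medians were -0.284 and -0.16 (vehicle) and -0.437 and -0.293 (AP), and the value each probe is centred on stays unknown.

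The processed signals were scaled to the 75th percentile of all non-control spots of each array and put on a log2 scale. Control spots and outlier flags were left out, and spots of a probe were averaged. A probe was tested if both mice of 1 group or more had it well above background. The fit used limma (version 3.58.1, R 4.3.3; lmFit, eBayes), with Benjamini-Hochberg adjustment and a threshold of 0.05. Of 55681 probes, 26576 were given a symbol through RefSeq GRCm38.p6, used for names because the array design gives another build. The brightest probe stands for a gene, and both probes were used where there were 2. The number of arrays limits the precision. Replicate numbers are not stated to pair mice, so no block was used, and slide position and treatment cannot be told apart. The script was tested on simulated data.

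The 10 genes, the lists and the tests were chosen with earlier results of these data known. Beyond the 10 genes, the text names listed lipid handling genes with an unadjusted limma p under 0.05, filled up with the largest differences in each direction, 3 at most, among genes whose groups do not overlap, and Trib3, Ddit3 and Atf4. The alternatives were normexp with an offset of 50 on the median spot signal, quantile and median scaling, both changes of the filter, a variance trend, the authors' table, a replicate block, each mouse left out, the methods' t-test, a gene's probes averaged and, chosen after seeing the data, a crossed block. No slide or scan block could be fitted, with 1 of each.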

Additional observations from a re-analysis of the deposited data

How the results depend on the processing

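Under 14 alternatives that test probes, limma or the methods' t-test called 0 probes at an adjusted p under 0.05, and between 1004 and 2613 at an unadjusted p under 0.05, against 1515 in the reported comparison. The alternative that averages a gene's probes had a smallest limma adjusted p of 0.67 and 729 of 12788 genes at an unadjusted p under 0.05. Lpl, Vldlr, Slc27a1 and Fabp3 were higher, and Cd36 and Fabp5 lower, with AP under all 15 alternatives. The median difference of the 10 genes was 0.19 as reported, 0.28 with the median of each array, 0.028 in the authors' log2 table, and 0.087 to 0.19 with 1 mouse left out. The median over all probes moved with these scalings too, from -0.012 to 0.080 and -0.174, with 48.7, 59.2 and 31.4% of probes higher, and the number of the 10 genes higher with AP lay between 5 and 7. Lmf1 turned to 0.050 with the median of each array, and Fabp4 to -0.11 in the authors' table. With 1 mouse left out, Lmf1 ranged from -0.17 to 0.089, Angptl4 from -0.43 to 1.10, Gpihbp1 from -0.65 to 0.078 and Fabp4 from -0.18 to 0.29. The cause was not tested. Vldlr had an unadjusted p under 0.05 under every alternative except without AP replicate 2. With the replicate block, limma called 0 probes (1227 at an unadjusted p under 0.05) and 6 of the 10 genes were higher. Deviations of same-numbered mice correlated at -0.128, and the crossed block, added after seeing the data, called 0 probes (1567 unadjusted). A planned block for slide and scan could not be run.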

Other observations

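Among the listed lipid handling genes, the vehicle mice stood farthest apart in Acsl5, an acyl-CoA synthetase, and in Apoc3, an apolipoprotein known to inhibit LPL. These were picked after their values were seen. Acsl5 was at 6.24 and 2.83 with vehicle and at 3.41 and 4.93 with AP, so the vehicle mice were 3.41 apart on the log2 scale and both AP mice lay between them. Apoc3 was at 0.90 and -1.60 with vehicle and at -1.11 and -0.96 with AP, a gap of 2.50 within the vehicle pair. In both genes vehicle replicate 1 was the highest mouse, unlike the muscle and leukocyte markers, of which vehicle replicate 2 was highest for 9 of 9 and 6 of 7.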
